A study of Mus musculus with 2 samples.

Results

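The CCN genes encode secreted matricellular proteins, which sit in the extracellular matrix and carry signals to cells rather than building the matrix itself. They were read in mouse embryonic fibroblasts (MEFs) with and without *BCL11B*, early in adipocyte differentiation. The 5 genes described here, *Ccn1* (*Cyr61*), *Ccn2* (*Ctgf*), *Ccn3* (*Nov*), *Ccn4* (*Wisp1*) and *Ccn5* (*Wisp2*), were chosen by name, as every probe set whose annotation names one of them and no other gene. They had 10 of the 34958 probe sets that were paired with 1 gene, and they are 5 of 18193 genes with such a probe set. All 5 passed the floor for counting, a mean over both arrays of 5 log2 units, as did 12331 genes in all. *Ccn2* and *Ccn5* are among the genes that the study itself picked out from these arrays, so their higher values are not independent evidence of a direction.

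Both groups were primary MEFs from C57BL/6 embryos at embryonic day 12.5, used at passage 2. The groups were wild-type (*BCL11B*+/+) and knockout (*BCL11B*-/-) cells. Both were kept for 12 h in medium with 10% fetal bovine serum, 10 μM pioglitazone, 10 μg/ml insulin, 1 μM dexamethasone and 0.5 mM isobutylmethylxanthine, so both groups carry the glucocorticoid, the cAMP stimulus and the PPARγ ligand. The differentiation medium of the study also held ascorbic acid. Each genotype was measured on 1 Affymetrix array, the labels give no number of embryos behind a culture, and no cells without the hormones were measured. Values are log2 expression after the robust multi-array average, which corrects background, makes the arrays alike in distribution and sums up the probes of a probe set. With no replicates there is no error between cultures and no p-value, and a difference is described by its size, with 1.5-fold (0.58 log2 units) as the rule.

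*Bcl11b*, the targeted gene, was lower in knockout MEFs on all 4 of its probe sets, by −1.18 to −1.57 log2 units, and 5.32 to 7.40 log2 units of signal remained. The median of all probe sets was 5.28 in wild-type and 5.28 in knockout MEFs. The median difference of the counted genes was 0, and their quartiles were −0.11 and 0.11. The cultures differed in more than *Bcl11b*: *Xist*, the RNA of the inactive X chromosome, read 10.80 in wild-type and 4.80 in knockout MEFs. Among Y-linked genes *Eif2s3y* read 7.89 in wild-type and 8.97 in knockout MEFs, *Kdm5d* 6.84 and 7.81, and *Uty* 6.80 and 7.61. Wild-type MEFs thus had signal for both *Xist* and Y-linked genes. The Y-linked genes differed by 1.08, 0.97 and 0.81. The part of these differences in the CCN values was not tested.

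CCN proteins are built from a row of modules, an insulin-like growth factor binding protein module, a von Willebrand factor C module, a thrombospondin type 1 module and, except in CCN5, a C-terminal cystine knot. They bind integrins and heparan sulfate proteoglycans and act on adhesion, migration, wound repair, cartilage and bone. *Ccn1* and *Ccn2* are well-known targets of the transcriptional coactivators YAP and TAZ with their TEAD partners, and *Ccn2* is also induced by TGF-β. *Ccn4* and *Ccn5* were first described as genes induced by WNT1, and in preadipocytes CCN5 has been described as holding the commitment factor ZFP423 outside the nucleus.

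*Ccn5* and *Ccn2* were higher in knockout MEFs, *Ccn1* and *Ccn3* were slightly higher, and *Ccn4* was nearly level. At 1.5-fold 2 of the 5 genes were higher, none was lower and 3 were neither. As a background, 1.61% of all counted genes were higher by this rule and 1.75% were lower. The median difference of the 5 genes was 0.20 log2 units, and 4 of the 5 lay above 0, against 48.8% of all counted genes.

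**Figure D1:**
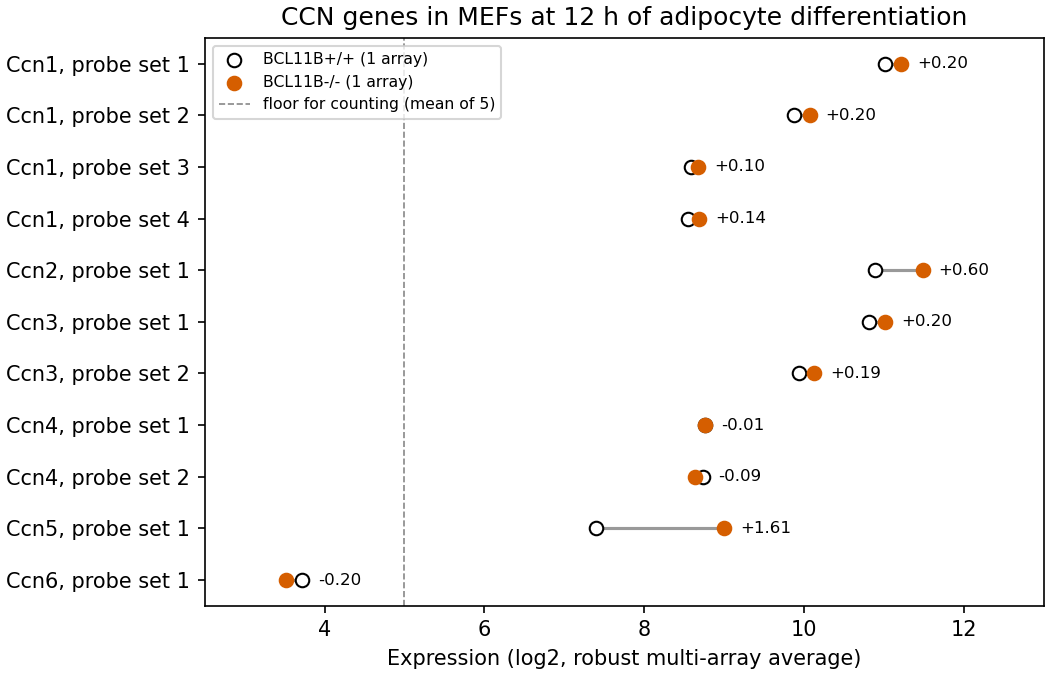
Expression (horizontal axis, log2) of every CCN probe set (vertical axis, numbered from the highest mean within each gene) in wild-type MEFs (open circles) and knockout MEFs (filled circles), 1 array each and therefore without error bars. The number beside each pair is the difference, which is 1.61 for *Ccn5*, 0.60 for *Ccn2* and between −0.09 and 0.20 for the probe sets of *Ccn1*, *Ccn3* and *Ccn4*, while *Ccn6* lies below the floor of 5.

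*Ccn5* had the largest difference of the family. Its only probe set read 7.39 log2 units in wild-type and 9.00 in knockout MEFs. On the linear scale this is 168 and 512 units of signal, which is 3.05-fold higher in knockout MEFs. Ordered from the most increased, *Ccn5* was 6th of the 12331 genes. No second probe set was there to check the value on the arrays. The study also measured *Ccn5* by real-time PCR and reported a significant increase in knockout MEFs at the time point of the arrays.

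*Ccn2*, which encodes a cofactor of TGF-β in fibrosis and wound repair, also had a single probe set. It read 10.89 log2 units in wild-type and 11.49 in knockout MEFs. The difference of 0.60 log2 units is 1.51-fold and only just past the rule of 1.5-fold. In the same order *Ccn2* was 193rd, and 1.57% of counted genes had a difference at least as high. On the linear scale its signal went from 1895 to 2867 units.

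*Ccn1*, an early response gene that acts in adhesion and vessel growth, had 4 probe sets, and all 4 were slightly higher in knockout MEFs. The brightest read 11.02 log2 units in wild-type and 11.21 in knockout MEFs, a difference of 0.20. The second read 9.87 and 10.07, again a difference of 0.20. The dimmer pair, which target the same expressed sequence tag, read 8.58 and 8.68 on one probe set and 8.54 and 8.68 on the other, with differences of 0.10 and 0.14. On the brightest probe set *Ccn1* was 14.7% higher in linear signal, and 13.5% of counted genes had a difference at least as high.

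A promoter sequence was at hand for *Ccn1* alone among the 5 genes. It is shown because TEAD factors, partners of YAP at *Ccn1*, bind DNA with the letters GGAATG. The sequence holds the 250 bases before the start of *Ccn1* from RefSeq, in build GRCm38.p6 at chr3:145649986-145650235 on the minus strand, with the match in capitals.

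*Ccn1*: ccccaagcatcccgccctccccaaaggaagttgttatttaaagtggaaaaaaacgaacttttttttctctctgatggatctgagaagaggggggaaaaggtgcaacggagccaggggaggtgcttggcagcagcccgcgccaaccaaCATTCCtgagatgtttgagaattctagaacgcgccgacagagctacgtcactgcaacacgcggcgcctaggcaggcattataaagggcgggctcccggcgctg

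The capitals mark GGAATG read on the opposite strand, between 103 and 98 bases before the start. Searched on both strands, these letters were in 12.6% of the 32851 promoter windows of this length. CTTTGA, the core that TCF and LEF factors bind, CAGAC, which SMAD factors bind, and the CArG box of SRF had no match in this window. They were in 13.8%, 42.2% and 1.47% of all windows. A match is a description of letters and was not tested as a binding site.

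*Ccn3*, a family member best known for restraining growth, had 2 probe sets that target the same cDNA. The brighter read 10.82 log2 units in wild-type and 11.02 in knockout MEFs. The other read 9.93 and 10.12. Both differences were close to each other, with 0.20 and 0.19, and to those of the bright probe sets of *Ccn1*.

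*Ccn4*, which encodes a protein of bone and fibroblast matrix, was nearly level on both of its probe sets, which target the same transcript. The brighter read 8.76 log2 units in wild-type and 8.76 in knockout MEFs, with a difference of −0.0069. The other read 8.73 and 8.64, with a difference of −0.092. After a loess fit on expression the first value became 0.0017, so *Ccn4* has no direction here.

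*Ccn6* (*Wisp3*), the remaining gene of the family in mice, read 3.72 log2 units in wild-type and 3.51 in knockout MEFs. Both values lie under the floor of 5, and *Ccn6* is not counted. Levels are not set against each other between genes, since different probe sets bind with different strength.

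The only technical yardstick at hand is the scatter among probe sets of the same gene. Over 5543 genes with several probe sets above the floor, their differences scattered with a pooled SD of 0.145 log2 units. The 4 probe sets of *Ccn1* spanned 0.10 log2 units, those of *Ccn4* 0.085 and those of *Ccn3* 0.010. The differences of *Ccn1* and *Ccn3* were little larger than this scatter, while those of *Ccn2* and *Ccn5*, with 1 probe set each, were larger. The scatter holds no variation between cultures. It also leaves out error that all probe sets of a gene share on an array, so it does not bound the technical part of a difference. *Ccn5* and *Ccn4*, which share a history as genes induced by WNT1, differed by 1.62 log2 units in their response, and *Ccn2* and *Ccn1*, which share regulation by YAP and TEAD, by 0.40.

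**Figure D2:**
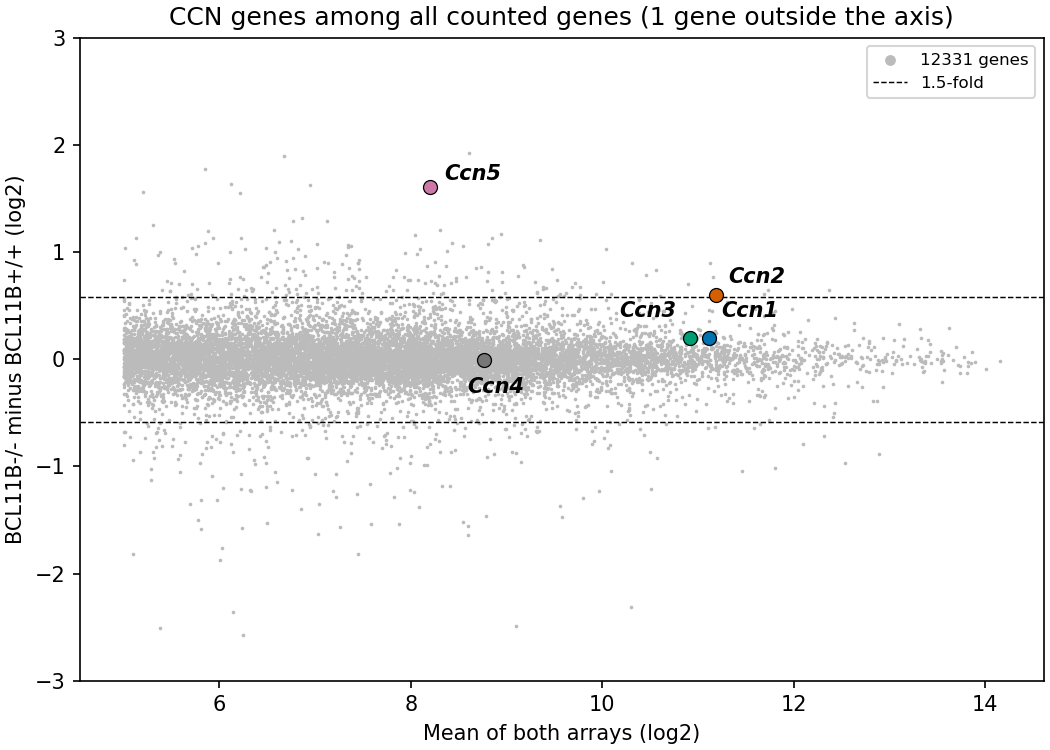
Difference between knockout and wild-type MEFs (vertical axis, log2) against the mean of both arrays (horizontal axis, log2) for 12331 counted genes (grey points), with the 5 CCN genes in colour and dashed lines at 1.5-fold. *Ccn5* with 1.61 stands near the top of the cloud, *Ccn2* with 0.60 lies on the upper line, the other CCN genes lie between the lines, and *Xist* with −5.99 is outside the axis.

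No counted gene for the surface proteins that CCN proteins bind was past 1.5-fold. The integrin gene *Itgb2* differed by −0.73 but, with a mean of 4.94 log2 units, was under the floor and not counted. Of 13 counted receptors and coreceptors 11 were above 0, and their median of 0.20 is the size of the differences of *Ccn1* and *Ccn3*. The highest were *Sdc4*, a heparan sulfate proteoglycan, with 0.43, and the integrin gene *Itga6* with 0.37. The lowest were the Wnt coreceptor *Lrp6* with −0.27 and the integrin gene *Itga2b* with −0.017.

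Genes of the YAP and TEAD pathway, of which *Ccn1* and *Ccn2* are well-known targets, mostly differed little in RNA level. The activity of the pathway was not measured, and its part in the CCN values was not tested. Of 18 counted genes of YAP, TAZ, TEAD and the Hippo kinases none was 1.5-fold apart, with a median of −0.094. *Yap1* read 10.48 log2 units in wild-type and 10.37 in knockout MEFs, *Wwtr1*, which encodes TAZ, 10.73 and 10.52, and *Tead1* 10.91 and 10.73. The lowest were the TEAD cofactors *Vgll3* with −0.36 and *Vgll4* with −0.29, and the highest were the angiomotin genes *Amot* and *Amotl2*, both with 0.10.

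Other targets of YAP and TEAD showed no common direction. Of 19 counted genes outside the CCN family none was 1.5-fold higher, 1 was lower and 18 were neither, with a median of 0.027. The lower gene was *Nt5e*, an ectonucleotidase, with −0.60, which becomes −0.28 when its probe sets are averaged. *Ptpn14*, a phosphatase that binds YAP, differed by 0.52, *Foxf2* by 0.36, *Ankrd1*, a widely used reporter of YAP, by 0.32, *Tgfb2* by −0.55 and *Rbms3* by −0.39. *Foxf2* passed the floor only through the knockout array, with 4.95 log2 units in wild-type MEFs, and had to be higher for that.

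Some genes controlled by SRF and its actin-sensing MRTF cofactors were higher. By the size rule 6 of 17 counted genes were higher, beside 1.61% of all counted genes, 11 were neither and none was lower, with a median of 0.38. The 6 were the contractile genes *Myl9* with 1.08, *Tagln* with 0.83, *Acta2* with 0.65, *Tpm1* with 0.62 and *Cnn1* with 0.59, and the LIM domain gene *Fhl2* with 0.70. *Tagln* is another gene the study picked from these arrays. *Actg2* differed by 0.50 and *Vcl* by 0.45, which became 0.12 for *Vcl* with its probe sets averaged, while the early response genes *Fos* and *Egr1* differed by −0.45 and −0.33. With their probe sets averaged, *Acta2* and *Tpm1* fell short of the rule with 0.19 and 0.38, which left 4 genes, and without suffixed probe sets 4 were higher as well. The regulators, also among the 17, were closer to 0, with *Srf* at 0.014, *Mrtfa* at 0.30, *Mrtfb* at 0.080 and *Myocd* at 0.26.

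Of 15 counted TGF-β ligands, receptors and target genes 2 were higher, none was lower and 13 were neither, with a median of −0.097. *Tgfb3*, a ligand, read 7.90 log2 units in wild-type and 8.68 in knockout MEFs, and *Ltbp2*, a latent TGF-β binding protein gene, differed by 0.62. *Tgfb2* with −0.55 and the coreceptor gene *Tgfbr3* with −0.50 were the lowest, and *Ltbp1* with 0.30 and *Smad3* with 0.18 were the highest of those under 1.5-fold.

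For the pathway after which *Ccn4* and *Ccn5* were named, 11 of 16 listed common targets of Wnt and β-catenin were counted. The rest were under the floor or had no probe set paired with them alone. Of the 11 none was 1.5-fold higher, 2 were lower and 9 were neither. Their median was −0.28, but −0.12 with probe sets averaged and −0.13 with no floor. The 2 were the R-spondin receptor gene *Lgr5* with −2.49 and the TGF-β pseudoreceptor gene *Bambi* with −0.72. With its probe sets averaged *Lgr5* was at −1.42. *Nkd2* with 0.26 and *Notum* with 0.16 were the highest, and *Apcdd1* with −0.33 and *Tcf7l2* with −0.32 the lowest of the others. *Tcf7l2* was at −0.11 with its probe sets averaged. *Ccn5* with 1.61 thus lay above all 11 counted targets. The study, with a different set of downstream genes that included *Ccn5*, reported from these arrays that the pathway appeared activated in knockout MEFs. Pathway activity was not measured here.

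**Figure D3:**
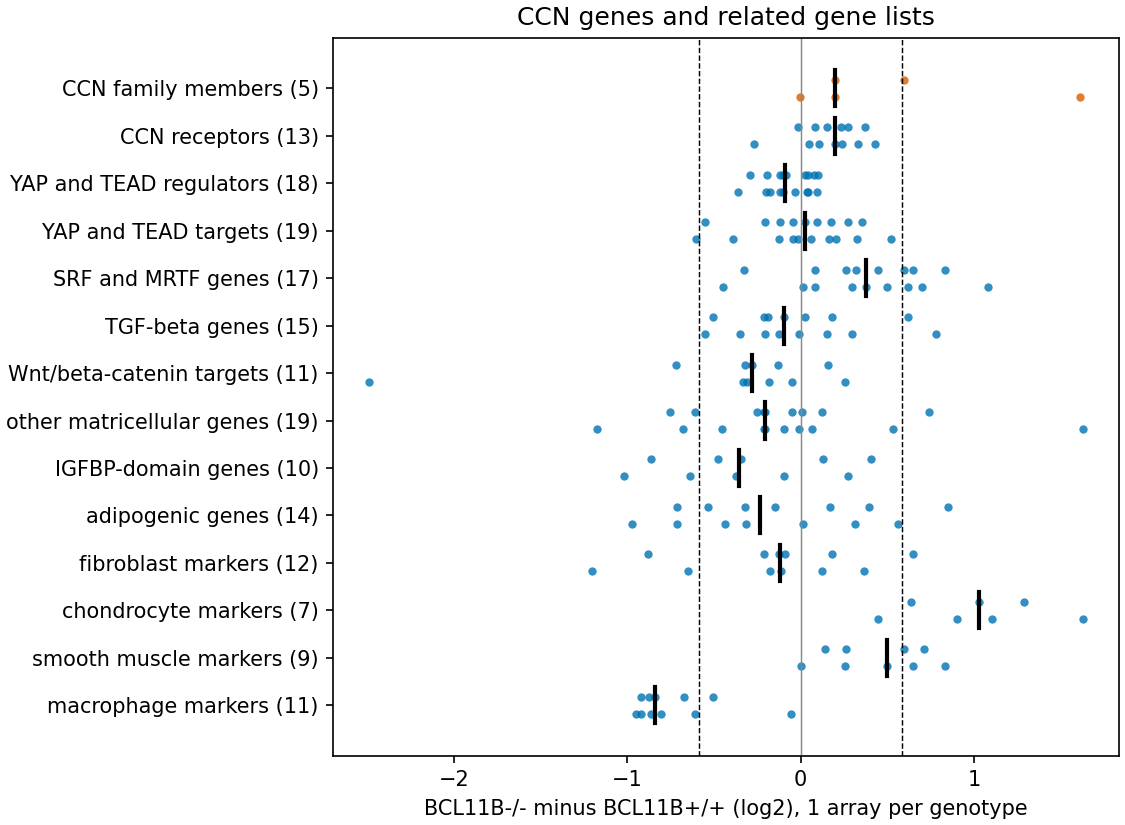
Difference between knockout and wild-type MEFs (horizontal axis, log2) for the CCN genes (orange) and the genes of 13 related lists (blue), with the number of counted genes in brackets, 1 array per genotype, black bars at the medians and dashed lines at 1.5-fold. The median is 0.20 for the CCN genes, 0.38 for SRF and MRTF genes, −0.094 for YAP and TEAD regulators and −0.28 for Wnt targets. Some genes are in several lists.

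Genes related to the family in function or by a shared module went both ways. Of 19 other matricellular genes 2 were higher, 4 were lower and 13 were neither. The listed gene *Spp1* (osteopontin), which the study reported as increased in knockout MEFs on these arrays, had no probe set paired with it alone here and is missing from these counts. Their median was −0.20, but −0.054 with probe sets averaged. The higher genes were *Comp*, a cartilage thrombospondin, with 1.63 and *Smoc1* with 0.74. The lower genes were *Angptl4*, an inhibitor of lipoprotein lipase, with −1.18, the tenascin gene *Tnxb* with −0.76, *Spock2* with −0.68 and *Smoc2* with −0.61. *Tnxb* and *Spock2* passed the floor only through the wild-type array, with 4.99 and 4.66 log2 units in knockout MEFs, and had to be lower for that. After the loess fit *Spock2* was under the floor and 3 genes were lower. *Thbs4* with 0.53, *Fbln5* with 0.12, *Fbln1* with −0.46 and *Thbs3* with −0.25 did not reach 1.5-fold.

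Of 10 counted genes whose proteins carry the insulin-like growth factor binding module, none was higher, 3 were lower and 7 were neither, with a median of −0.36. *Igfbp3*, the main carrier of insulin-like growth factors in serum, read 12.32 log2 units in wild-type and 11.30 in knockout MEFs. *Kazald1* differed by −0.86 and *Igfbp2* by −0.64. *Igfbp7* with 0.41, *Crim1* with 0.27, *Igfbp6* with −0.48 and *Htra3* with −0.37 did not reach 1.5-fold. Averaged over their probe sets *Htra3* was at −0.027 and *Igfbp7* at 0.12, and the list's median was −0.19, or −0.095 with no floor.

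Of 14 counted genes of adipogenesis 1 was higher, 3 were lower and 10 were neither, with a median of −0.23. The lower genes were the lipid uptake genes *Lpl* with −0.97 and *Cd36* with −0.71, and *Pparg*, the master regulator of fat cells, with −0.71. *Ebf2*, an early B cell factor of preadipocytes, was higher with 0.85. *Zfp423*, whose protein CCN5 binds in the account given above, read 6.09 log2 units in wild-type and 6.49 in knockout MEFs. *Adipoq* differed by 0.56, *Cebpa* by −0.53 and *Klf4* by −0.44.

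Markers of cell types also differed between the cultures, and in bulk RNA fewer cells of a type and less RNA per cell cannot be told apart. All 12 fibroblast markers were above the floor on these arrays, with 1 higher, 3 lower and a median of −0.12. *S100a4*, a further gene the study picked, was higher with 0.65, and the lower ones were *Lum* with −1.21, *Dcn* with −0.88 and *Thy1* with −0.65. *Pdgfrb* with 0.36 and *Vim* with 0.18 were the highest of the others, and *Postn* with −0.21 and *Pdgfra* with −0.18 the lowest. *Pdgfra* has no settled direction, since it was at 0.30 on the probe set with the largest difference.

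Some chondrocyte markers were higher in knockout MEFs. Of 12 listed genes 7 were above the floor, and 6 of these were at least 1.5-fold higher, beside 1.61% of all counted genes. The median of the 7 was 1.03. With probe sets averaged 4 were higher. With a floor of 7 only *Col11a1* and *Sox9* were still counted, and both were higher. The 6 were *Comp*, *Col2a1* with 1.29, *Col9a1* with 1.11, *Hapln1* with 1.03, *Col11a1* with 0.90 and *Sox9* with 0.64, and *Acan* differed by 0.45. Their summed signal was 11.05 log2 units in wild-type and 11.98 in knockout MEFs, of which *Col11a1* alone read 10.67 and 11.57. *Col9a2*, *Col11a2*, *Matn1*, *Matn3* and *Cnmd*, which mark cartilage too, were under the floor, with differences from −0.098 for *Matn1* to 0.29 for *Cnmd*.

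Of 9 counted smooth muscle markers 4 were higher, beside 1.61% of all counted genes, and none was lower, with a median of 0.50. Apart from *Tagln*, *Acta2* and *Cnn1*, which are also in the SRF list, *Lmod1* was higher with 0.71, while *Des* was at 0 and *Myh11* at 0.14. With probe sets averaged 3 of the markers were higher. The summed signal of the counted markers was 12.54 log2 units in wild-type and 13.20 in knockout MEFs. Of this, *Acta2* alone read 12.04 and 12.69. Of 11 macrophage markers 9 were lower, beside 1.75% of all counted genes, and none was higher, with a median of −0.84 and a summed signal of 12.17 and 11.36. One of the 9, *Ptprc* with −0.81, passed the floor only through the wild-type array, with 4.998 log2 units in knockout MEFs, and had to be lower for that. Among the 9 were *Laptm5* with −0.95, *Tyrobp* with −0.92, *Lyz2* with −0.92, *C1qa* with −0.88, *Csf1r* with −0.86 and *C1qb* with −0.84, and *Fcer1g* with −0.50 and *Cd14* with −0.056 did not reach 1.5-fold. With probe sets averaged 6 were lower, the median was −0.64 and *Csf1r* fell short of the rule with −0.53. Without suffixed probe sets 6 were lower too, and *Laptm5* was at 0.040. Of 8 mesothelial markers 2 were lower, *Lrrn4* with −0.62 and *Gpm6a* with −0.61, of 4 counted endothelial markers none was 1.5-fold apart, and of 2 counted osteoblast markers *Dlx5* was higher with 1.13. Only 6 of the 10 listed osteoblast markers had a probe set paired with them alone, and *Spp1* and *Runx2* were not among these. The part of these cell types in the CCN values was not tested.

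The place of the genes on the chromosomes was looked at after the values were known. In the order of protein-coding genes of GRCm38.p6, the gene directly beside *Ccn5* on chromosome 2 is *Ada*, adenosine deaminase. *Ada* read 5.73 log2 units in wild-type and 7.63 in knockout MEFs, a difference of 1.90, and was 2nd of 12331 genes ordered from the most increased. *Ccn5*, as given above, was 6th.

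The other counted genes around *Ccn5* were close to level. *Pkig*, on the far side of *Ada*, differed by 0.11, *Serinc3* by 0.044, *Ttpal* by 0.022, *Hnf4a* by −0.21, *Ywhab* by −0.061 and *Tomm34* by 0.047. Over the 5 genes on each side of all 5 CCN genes 27 were counted, of which *Ada* was past 1.5-fold upward and *Col14a1*, a fibril-associated collagen gene near *Ccn3*, downward with −0.87. Over all counted genes 3.36% were 1.5-fold apart in either direction. Around *Ccn2* the highest counted gene was *Moxd1*, directly beside it, with 0.36. Around *Ccn1* and *Ccn4* no counted gene was 1.5-fold apart. *Tnfrsf11b*, near *Ccn3*, read 4.08 log2 units in wild-type and 5.28 in knockout MEFs. It differed by 1.19 but, with its mean under the floor, was not counted.

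**Figure D4:**
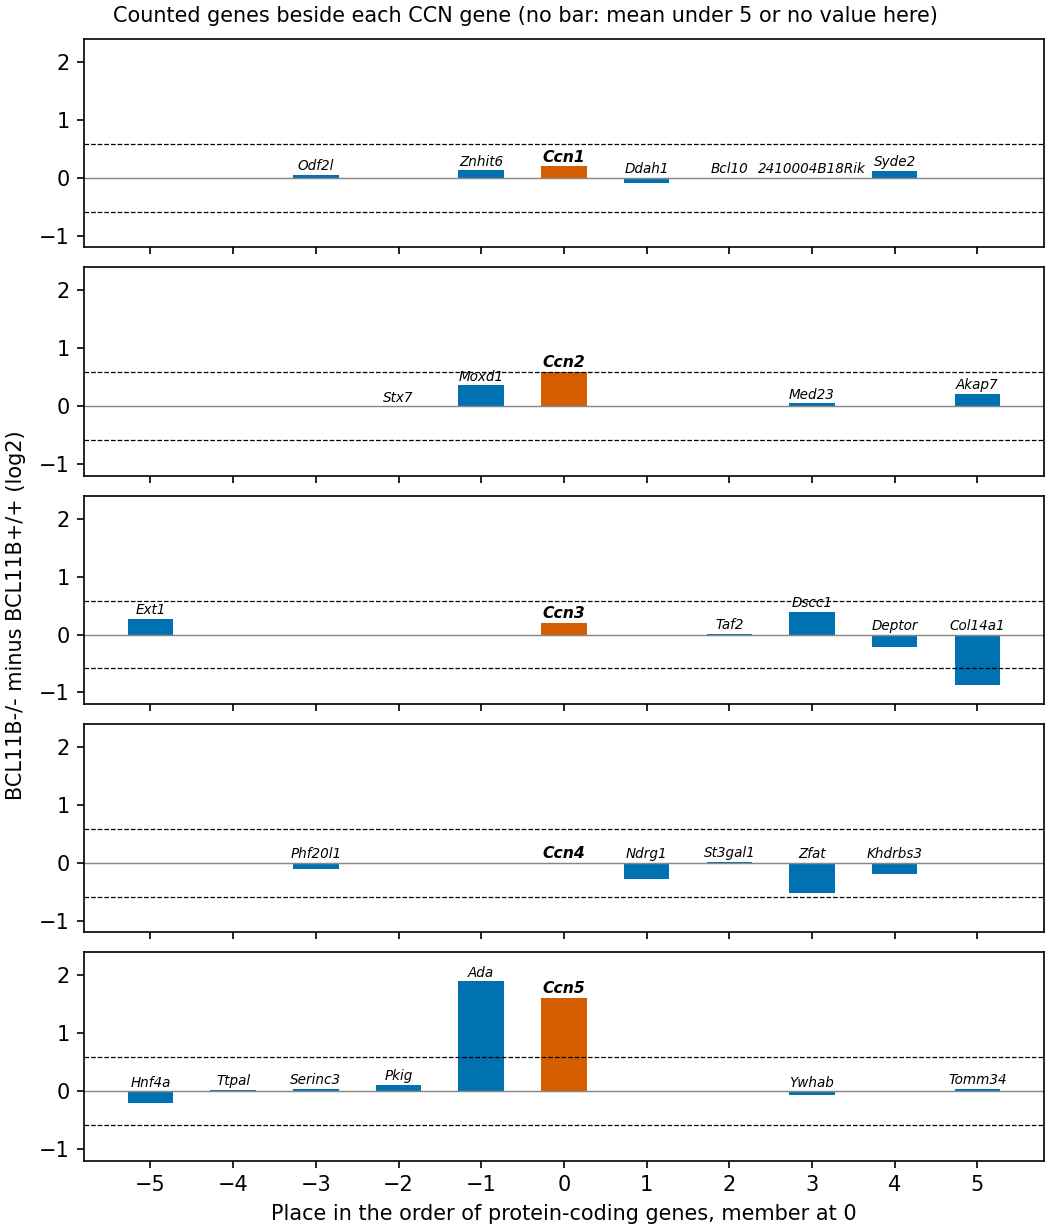
Difference between knockout and wild-type MEFs (vertical axis, log2) of the counted genes up to 5 places before and after each CCN gene in the order of protein-coding genes (horizontal axis), with the CCN gene in orange, its neighbours in blue, dashed lines at 1.5-fold and 1 array per genotype. *Ada* with 1.90 and *Ccn5* with 1.61 stand side by side, and the other counted neighbours lie between −0.87 and 0.40.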

How the data were processed

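The deposited values are log2 expression, which the authors made from the scanned Affymetrix Mouse Genome arrays with the robust multi-array average. The submitters' processing notes name R 3.0.3. The genome build is not given in the sources used here. Of 45101 probe sets 64 were controls. The platform annotation paired 34958 with 1 gene and 932 with several, and only the former were used. Each gene was represented by its brightest probe set over both arrays, genes with a mean under 5 were not counted, and sizes were counted at 1.5-fold. The counting rule was checked on simulated data. Alternatives changed the probe set, normalization, filter and size rule.

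The members and lists were chosen with earlier results of these data known. In each list all genes 1.5-fold apart and the 2 highest and 2 lowest of the others were to be named; some lists name fewer. *Yap1*, *Wwtr1*, *Tead1*, *Ankrd1*, *Srf*, *Mrtfa*, *Mrtfb*, *Acan* and *Myh11* were named after their values were seen, as were all neighbouring genes. Neighbours and the *Ccn1* promoter came from RefSeq, GRCm38.p6. Protein sequences and other CCN promoters were not analysed here. The software was Python 3.11.15, numpy 2.4.6, pandas 2.3.3, statsmodels 0.14.6 and matplotlib 3.10.9. With 1 array per genotype no test between genotypes was made, and the number of arrays limits the precision.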

Additional observations from a re-analysis of the deposited data

How the results depend on the processing

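The difference of each CCN gene moved by less than the probe set scatter of 0.145 under every alternative that gave a value. Much of this was fixed in advance. *Ccn2* and *Ccn5* have 1 probe set each, so another choice of probe set could not move them. The median subtracted was 0, the loess curve lay between −0.011 and 0.014, and a changed floor leaves differences as they are. *Ccn5* ranged from 1.61 to 1.62, *Ccn2* from 0.60 to 0.61, *Ccn1* from 0.096 to 0.201, *Ccn3* from 0.19 to 0.20 and *Ccn4* from −0.092 to 0.0017. *Ccn3* had no value without suffixed probe sets. At 2-fold 1 CCN gene was higher, *Ccn5*, and at 1.2-fold the count of 2 was the same. The counts over all genes were 112 higher and 124 lower when the floor was 7, 1086 higher and 962 lower at 1.2-fold, and 43 higher and 62 lower at 2-fold, as stricter and looser rules count fewer and more by construction. Of the other named genes' differences, counted once per alternative, 730 of 753 moved by less than the scatter, many of which could hardly move for the same reasons. *Laptm5* changed sign, to 0.040 without suffixed probe sets, as did *Pdgfra*, from −0.18 to 0.30 with the probe set of the largest difference, and the cause was not tested. Among list medians 12 of 127 moved by more than the scatter. The median of the chondrocyte markers was 0.78 with probe sets averaged, 0.54 with no floor and 0.77 with a floor of 7. At that floor only 2 of them were counted, and both were higher. In alternatives chosen after seeing the data, 3 neighbours on each side of each CCN gene gave 0 lower, and 10 on each side gave 2 higher, *Ada* and *Aard*, which lies near *Ccn3* and differed by 1.00. Without replicates none of these ranges holds the variation between cultures.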

Other observations

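To place each CCN gene among others, the 2 counted genes closest to it in the log2 values of both arrays were taken. With only 2 arrays such likeness is a description, and since it depends on how strongly each probe set binds, neither the level nor the distance ranks the genes. For *Ccn5* these were *Loxl3*, a lysyl oxidase gene that cross-links matrix, at 7.71 in wild-type and 8.91 in knockout MEFs, and *Foxd1*, a forkhead factor of stromal cells, at 7.46 and 8.62.

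*Ccn2* was nearest to *Tpm4*, a tropomyosin gene of the cytoskeleton, at 10.92 and 11.37, and to *Cdh2*, which encodes N-cadherin, at 10.78 and 11.54. Their differences were 0.45 and 0.76, with 0.60 for *Ccn2* between them. *Ccn1* was nearest to *Dbi* and *Snap47*, *Ccn3* to *Il6st* and *Manf*, and *Ccn4* to *Isca2* and *Rhno1*.

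As a measure of RNA quality, the signal at the 3′ end of β-actin exceeded that at the 5′ end by 1.64 log2 units in wild-type and by 1.47 in knockout MEFs.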
